A study of Mus musculus with 2 samples.

Results

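The NF-kappaB subunits and inhibitors are 10 genes, Rela, Rel, Relb, Nfkb1, Nfkb2, Nfkbia, Nfkbib, Nfkbie, Nfkbiz and Bcl3. They were taken by gene symbol from a table of 13138 genes, and all 10 were present. The RNA came from primary mouse chondrocytes (strain C57Bl/6) grown outside the animal as micromass cultures, dense drops of cells that lay down a cartilage-like matrix. One library, called Cre-labelled here, came from cells transduced with an adenovirus for Cre recombinase, which cuts out DNA between loxP sites, and its genotype is given as hdac3-knockout. The other, called GFP-labelled, came from cells transduced with a control adenovirus for green fluorescent protein, and its genotype is given as wild-type. The labels give no floxed allele, no age and no number of animals or dishes in either library. Each group had 1 library, so every difference below compares 2 libraries, has no replicate check and carries no p-value.

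NF-kappaB is a family of transcription factors that act as dimers of subunits sharing a Rel homology domain. In resting cells most dimers are held in the cytoplasm by inhibitors of the IkB family. Signals such as interleukin 1 and tumour necrosis factor activate the IkB kinase (IKK) complex, which marks IkB proteins for destruction by the proteasome and lets the dimers enter the nucleus. In a slower, non-canonical branch, the p100 precursor made from Nfkb2 is processed to p52, which pairs with RelB. Several genes of the family are themselves targets of NF-kappaB, Nfkbia being the textbook example of negative feedback. In cartilage the pathway is best known for inducing chemokines and matrix-degrading enzymes in chondrocytes exposed to inflammatory cytokines.

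Values are log2 normalized gene counts as the authors deposited them. They appear to be regularized log values, which shrink the differences of genes with few reads, and the depth of the libraries is unknown. Folds are folds of these transformed values. Differences are Cre minus GFP, and a gene is called higher or lower at 1.5-fold or more (0.58 on the log2 scale) among the 12809 genes with a mean of at least 50 normalized counts. Cartilage genes were abundant in both libraries, with Col2a1, the main cartilage collagen, at 19.97 in the Cre-labelled library and 20.35 in the GFP-labelled library. All 12 chondrocyte markers lay below 0, from -0.04 for Comp to -0.89 for Matn3, with a median difference of -0.54. Of all genes, 49.9% lay above 0. Lower by 1.5-fold or more were 4 of the 12, beside 0.952% of all genes. Hdac3 itself was level, at 10.68 in the Cre-labelled library and 10.69 in the GFP-labelled library. The total Hdac3 count could neither bear out nor contradict the genotype labels, since it does not show whether some exons were lost.

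Reference sequences are shown for the promoters of 7 members, because NF-kappaB binds a 10-base kappaB element and several of these genes are known to respond to it. RefSeq promoters (GRCm38.p6, 250 bases before to 50 bases after the start site) were found for Rela, Rel, Nfkb2, Nfkbia, Nfkbib, Nfkbie and Bcl3. Promoters of Nfkb1, Relb and Nfkbiz were not analysed here. The promoter of Nfkbia is printed whole, from chr12:55492598-55492897 on the minus strand, with the match to the kappaB consensus in capitals.
Nfkbia promoter: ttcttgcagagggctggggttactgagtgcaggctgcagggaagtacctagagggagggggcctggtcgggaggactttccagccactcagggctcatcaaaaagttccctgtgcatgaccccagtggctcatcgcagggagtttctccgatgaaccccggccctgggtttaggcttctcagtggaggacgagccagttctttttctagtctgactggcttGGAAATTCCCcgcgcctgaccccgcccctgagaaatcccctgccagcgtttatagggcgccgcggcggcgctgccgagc
The match begins 29 bases before the start site. The first of 3 RefSeq promoters of Nfkb2 (chr19:46304487-46304786, plus strand) is shown because it held matches in 2 separate stretches.
Nfkb2 promoter: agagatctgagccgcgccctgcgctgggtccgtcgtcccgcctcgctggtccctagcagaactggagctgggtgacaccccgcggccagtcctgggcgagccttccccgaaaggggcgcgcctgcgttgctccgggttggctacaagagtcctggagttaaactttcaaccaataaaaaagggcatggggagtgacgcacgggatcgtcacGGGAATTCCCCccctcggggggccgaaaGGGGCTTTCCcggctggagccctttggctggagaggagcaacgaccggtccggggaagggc

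Both strands were searched, and overlapping matches were joined into 1 stretch. The 7 genes held 8 separate stretches, of which Nfkb2 had 4 over its 3 promoters. Those of Bcl3, Nfkbie and Rel, and the 2 further ones of Nfkb2, are set beside each other below with 9 flanking bases on each side.
Bcl3 (chr7:19822735-19822762, minus strand): cggcggcagGGGAAGTCCCgctgcccgg
Nfkbie (chr17:45555585-45555612, plus strand): cagcaaacaGGGGGATTCCggaggggcg
Rel (chr11:23771042-23771070, minus strand): gtaagcagcGGGAAATCCCCccccctccc
Nfkb2, promoter 2 (chr19:46305450-46305477, plus strand): ccgacggcaGGAATGTCCCcacaaaagc
Nfkb2, promoters 2 and 3 (chr19:46305696-46305723, plus strand): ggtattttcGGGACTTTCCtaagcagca
The stretch of Nfkbie begins 106 bases and that of Rel 92 bases before the start site, whereas that of Bcl3 lies 2 bases after it. The promoters of Rela and Nfkbib held no match, which says only that these letters are not in the windows searched.

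The share of genes with a match was 71.4% (5 of 7) among the members. It was 12.6% among the 9157 genes of the table that were over the minimum and had a promoter. Among all 27025 genes of the reference with a promoter it was 9.55%. A gene counted here if any of its promoters held a match. Counted per promoter, 8.46% of all 32851 promoters of the reference held one. Promoters of the members are rich in G and C. Taking the promoter richest in G and C of each gene, the median was 68% against 62% for the table's genes. Of all promoters with at least the G and C content of the poorest member promoter, 12.8% held a match. A looser pattern, GGG and CC with any 5 bases between them on either strand, which includes every kappaB match, was in 6 of the 7 members and in 72.6% of the table's genes. A match in a promoter is a description of sequence and not evidence of binding.

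All 10 members had a larger value in the Cre-labelled library than in the GFP-labelled library, from 1.09-fold for Rel to 3.21-fold for Nfkbiz. The nuclear regulators Nfkbiz and Bcl3 differed most, followed by the cytoplasmic inhibitors Nfkbia and Nfkbie and by the subunits Nfkb2 and Relb. The subunits of the best known dimer, Rela and Nfkb1, differed by less. Of the 10 members, 6 were at least 1.5-fold higher, where 2.25% of all genes over the minimum were, and 3 were at least 2-fold higher, where 0.734% of all genes were. No member was lower, against a background of 0.952% at 1.5-fold and 0.0703% at 2-fold. Above 0 lay 49.9% of all genes. With the threshold lowered to 0.32 on the log2 scale, 8 members were higher and 0 lower, beside 6.02% and 4.36% of all genes. The median difference was 0.69 over the members and -0.00041 over all genes.

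**Figure D1:**
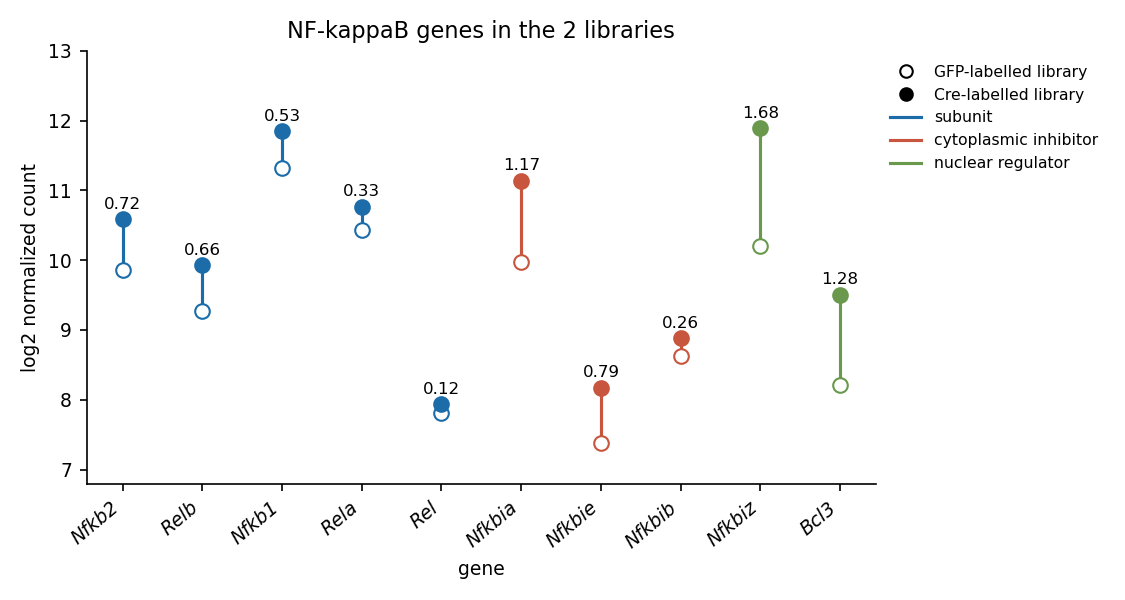
Log2 normalized count (vertical axis) of each of the 10 genes in the GFP-labelled library (open circles) and the Cre-labelled library (filled circles), with 1 library per group and no error bars. The number above each pair is the difference, Cre minus GFP, which runs from 0.12 for Rel to 1.68 for Nfkbiz.

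The 5 subunits form the DNA-binding dimers. Nfkb2, which encodes the p100 precursor of p52, had a log2 normalized count of 10.58 in the Cre-labelled library and 9.86 in the GFP-labelled library, a 1.65-fold difference. Relb, whose product pairs with p52 and is retained in the cytoplasm by p100, had 9.93 and 9.27, a 1.58-fold difference. These partners of the non-canonical branch were the subunits past 1.5-fold.

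Nfkb1, which encodes the p105 precursor of p50, had 11.85 in the Cre-labelled library and 11.32 in the GFP-labelled library. Its difference of 0.53, or 1.44-fold, fell short of the threshold. Rela, which encodes the transactivating subunit p65, had 10.76 and 10.43, a 1.26-fold difference. Rel, which encodes c-Rel, a subunit known chiefly from lymphocytes and myeloid cells, was the least different member. It had 7.94 in the Cre-labelled library and 7.82 in the GFP-labelled library, a difference of 0.12. The subunits thus ranged from 0.12 to 0.72, with a median of 0.53 and 2 of 5 at 1.5-fold.

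The cytoplasmic inhibitors split. Nfkbia, which encodes IkB-alpha, the inhibitor that NF-kappaB itself induces, had 11.14 in the Cre-labelled library and 9.97 in the GFP-labelled library, a 2.25-fold difference. Nfkbie, which encodes IkB-epsilon, another inducible inhibitor, had 8.17 and 7.38, a 1.73-fold difference. Nfkbib, which encodes IkB-beta, a slowly degraded inhibitor, had 8.89 and 8.62, a 1.20-fold difference that stayed under the threshold. A kappaB match was found above in the promoters of Nfkbia and Nfkbie but not in that of Nfkbib. Among the subunits, Nfkb2 held 4 stretches and differed by 0.72, Rel held 1 and differed by 0.12, and Rela held none and differed by 0.33.

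Nfkbiz and Bcl3 encode atypical IkB proteins that act in the nucleus, where they bind p50 or p52 homodimers and modulate transcription of a subset of inflammatory genes. Nfkbiz, which encodes IkB-zeta, a cofactor for secondary response genes such as Lcn2, had 11.89 in the Cre-labelled library and 10.21 in the GFP-labelled library. Its 3.21-fold difference was the 22nd highest of 12809 genes. Bcl3, named for a gene first found at a translocation in B-cell leukaemia, had 9.50 and 8.22, a 2.44-fold difference that ranked 47. Nfkbia ranked 64, and the other members ranked from 156 for Nfkbie to 2530 for Rel.

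At mean log2 levels of 7 to 9, 9 to 11 and 11 to 12, 2.21%, 2.45% and 2.25% of genes were at least 1.5-fold higher. This share thus changed little with abundance over the range of the members. Each member was also set against the 500 genes nearest to it in mean level. Among those, 3 genes had a difference as high as that of Nfkbiz, 1 as high as that of Bcl3, 4 as high as that of Nfkbia and 2 as high as that of Nfkbie. For Nfkb2, Nfkb1 and Relb the numbers were 7, 8 and 9. Rela and Nfkbib sat lower, with 37 and 42 of 500 genes as high. Rel was inside the bulk, with 120 genes as high. These ranks describe the 2 libraries and do not replace replicates.

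**Figure D2:**
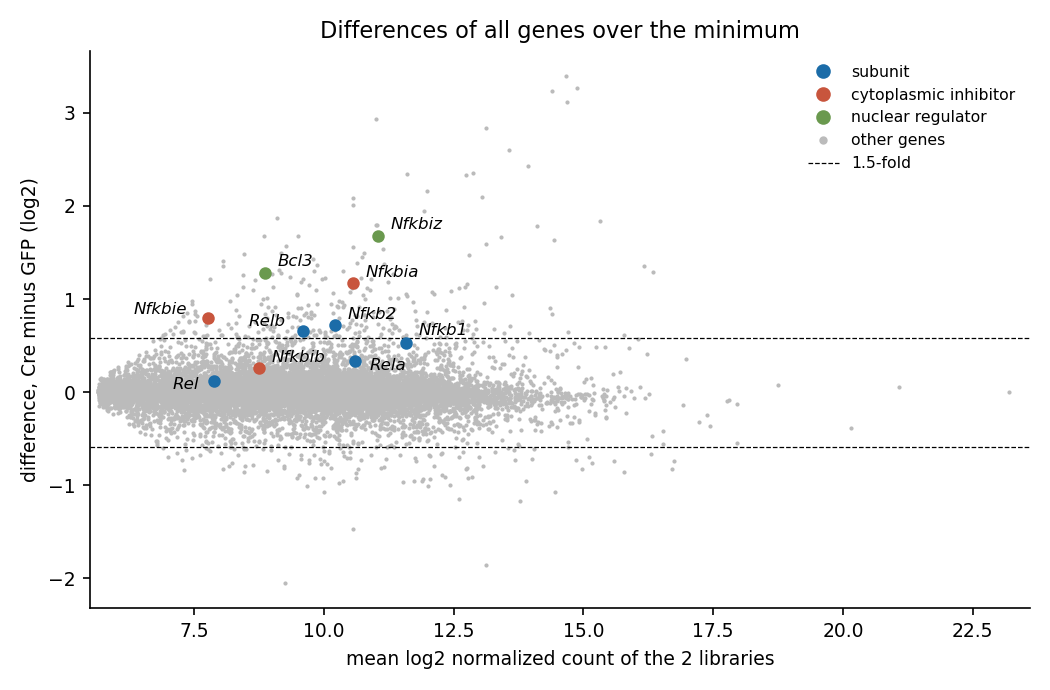
Difference in log2 normalized count, Cre minus GFP (vertical axis), against the mean log2 normalized count of the 2 libraries (horizontal axis) for the 12809 genes over the minimum, with the NF-kappaB genes in colour and dashed lines at 1.5-fold. Nfkbiz, Bcl3 and Nfkbia stand above most genes of like level, while Rel, at a difference of 0.12, lies within the cloud.

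Levels of different genes can be compared only per length, so linear normalized counts were divided by the merged exon length in GENCODE M21. The linear values were taken back from the deposited log2 values. Any shrinkage by the transform, which acts on genes with few reads, is therefore carried into the levels, shares and ratios below. In the GFP-labelled library, Nfkbia had the highest level per length, 622 normalized counts per kb, followed by Rela at 449. Nfkbiz had 236, Nfkb1 212, Nfkb2 203, Nfkbib 182, Relb 159, Bcl3 120, Nfkbie 54.6 and Rel 30.2. In the Cre-labelled library, Nfkbia reached 1399 per kb and Nfkbiz 756, which placed Nfkbiz above Rela at 566. Nfkb2 (335), Nfkb1 (306), Bcl3 (293) and Relb (251) lay close together there, and Rel remained lowest at 32.8. No replicate shows which neighbours in these orders differ beyond their spread.

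The order depends on the length used for Nfkb1. Its merged exons span 12061 bases and its longest annotated transcript 4149. Per kb of the longest transcript, Nfkb1 had 890 in the Cre-labelled library and 617 in the GFP-labelled library, above Rela at 640 and 508. Rela made up 38.0% of the summed subunit level per kb of merged exons in the Cre-labelled library and 42.7% in the GFP-labelled library. Nfkb2 made up 22.5% and 19.2%. Nfkb1 made up 20.5% and 20.1%, and Rel 2.20% and 2.87%. Per kb of the longest transcript, Nfkb1 had the largest share, 39.4% and 38.9%, and Rela had 28.3% and 32.1%.

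The 3 cytoplasmic inhibitors together, per kb of merged exons, stood at 1.15 times the 5 subunits in the Cre-labelled library and at 0.815 times in the GFP-labelled library. Per kb of the longest transcript the inhibitors lay below the subunits in both libraries, at 0.776 times and 0.556 times, so which sum is larger depends on the length used. The ratio was higher in the Cre-labelled library by either length, 1.41-fold per kb of merged exons and 1.39-fold per kb of the longest transcript. Nfkbia supplied most of the inhibitor sum, 81.7% in the Cre-labelled library and 72.5% in the GFP-labelled library. The nuclear regulators stood at 0.704 times the subunits in the Cre-labelled library and 0.338 times in the GFP-labelled library. These are ratios of transcripts and not of proteins.

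**Figure D3:**
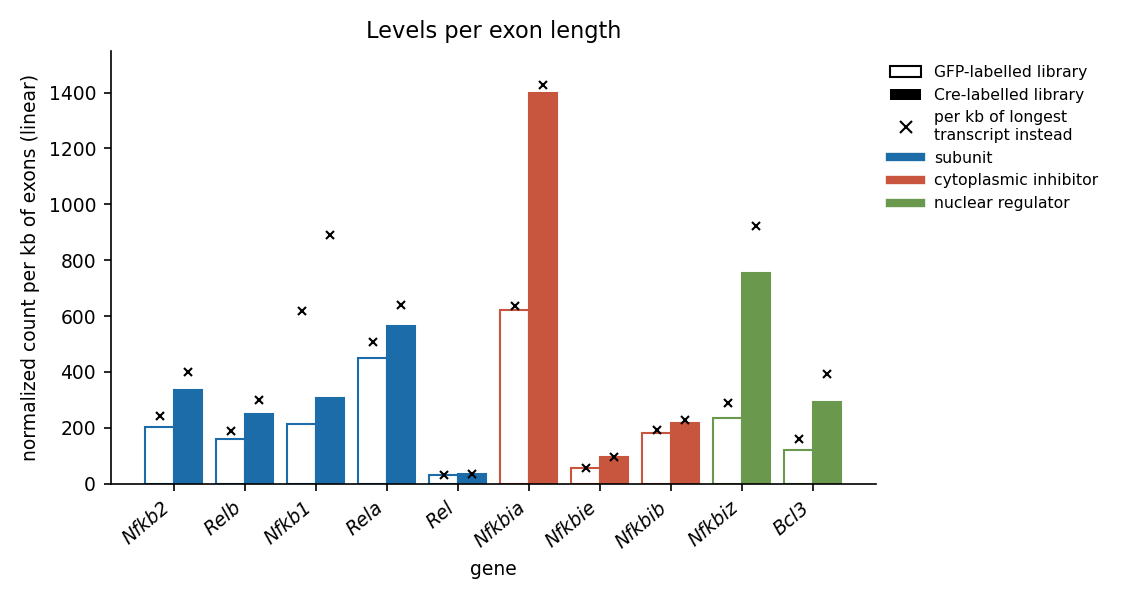
Linear normalized count per kb of merged exons (bars from 0) for each gene in the GFP-labelled library (open bars) and the Cre-labelled library (filled bars), with crosses for the value per kb of the longest annotated transcript and no error bars because each group has 1 library. Nfkbia is the tallest in both, at 1399 and 622 per kb of merged exons, and the crosses of Nfkb1, at 890 and 617, lie far above its bars.

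Genes of the machinery that activates NF-kappaB differed by less than the members, and a few passed the threshold. Of 12 genes for the IKK complex and upstream kinases, 1 passed 1.5-fold, upward (8.33%, beside 2.25% of all genes), 8 lay above 0 and the median difference was 0.11. That gene was Ikbke, which encodes an IKK-related kinase that is itself inducible, at 1.73-fold. Map3k8, which encodes the kinase TPL2 held by p105, differed by 0.58, just under the threshold, and Map3k14, the NF-kappaB-inducing kinase of the non-canonical branch, by 0.30. Tbk1, an IKK-related kinase, differed by 0.24. The core kinase genes Chuk and Ikbkb differed by -0.0048 and 0.10, and the gene of their scaffold, Ikbkg, by 0.12.

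Among 22 adaptors and ubiquitin ligases, 18 lay above 0, where 49.9% of all genes did, and the median was 0.17. Of the 22, 3 passed 1.5-fold, all of them higher (13.6%, beside 2.25% of all genes), and 7 were higher by at least 0.32, which 6.02% of all genes were. Birc3, which encodes the ubiquitin ligase cIAP2, differed 1.91-fold. Traf1, an inducible adaptor of TNF receptors, differed 1.58-fold and Ripk2, the kinase downstream of NOD receptors, 1.51-fold. Irak2, a kinase of the interleukin 1 and Toll-like receptor route, differed by 0.58 and stayed just under the threshold. Traf6 and Xiap, a ligase and an inhibitor of apoptosis, each differed by -0.02. Of 10 genes for IkB degradation and p100 processing, 0 were past 1.5-fold, near the background of 2.25% higher and 0.952% lower. Their differences ran from -0.13 for Btrc, the receptor subunit that recognises phosphorylated IkB, to 0.10 for Cdc34, a ubiquitin-conjugating enzyme, with Skp1a at -0.12 and Cul1, the ligase scaffold, at 0.07.

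Other inhibitors and brakes of the pathway divided into a few clearly higher genes and a level majority. Of 14 measured, 3 passed 1.5-fold, all upward (21.4%, beside 2.25% of all genes), and the median was 0.08. Zc3h12a, which encodes the ribonuclease Regnase-1, had 10.50 in the Cre-labelled library and 9.06 in the GFP-labelled library, a 2.70-fold difference. Tnfaip3, which encodes the ubiquitin-editing enzyme A20, had 9.59 and 8.46, a 2.19-fold difference. Its partner gene Tnip1 differed 1.72-fold. Pdlim2, whose product promotes degradation of nuclear p65, went the other way, at -0.39. Nuclear partners were level, with a median of 0.0016 over 15 genes and 0 past the threshold. With 2.25% of all genes higher and 0.952% lower, 0 in so short a list is near the background. The differences ranged from -0.14 for the methyltransferase gene Setd7 to 0.18 for the demethylase gene Kdm2a. Akirin2, a nuclear cofactor, differed by -0.11 and the deacetylase gene Hdac2 by -0.10.

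Textbook target genes of NF-kappaB differed most. Of 36 listed, 28 were measured, and 24 of those lay above 0. At 1.5-fold, 19 were higher (67.9%, beside 2.25% of all genes) and 0 lower (beside 0.952%). At 2-fold, 17 were higher, where 0.734% of all genes were. The median was 1.30. The list was led by Saa3, an acute-phase gene, at 10.5-fold, the stromelysin gene Mmp3 at 9.63-fold, the lipocalin gene Lcn2 at 8.68-fold and the chemokine gene Cxcl1 at 7.62-fold. The lowest member was Ccnd1, the cyclin D1 gene, at -0.52. Cxcl2, Ccl5, Ccl20, Il6, Il1b, Nos2, Csf2 and Csf3 were not in the table and were not analysed here. The list was drawn with earlier results of these libraries known, so its direction is not independent evidence. Of the 20 measured targets with a RefSeq promoter, 8 (40%) held a kappaB match. So did 47 of 203 genes (23.2%) at least 1.5-fold higher and 14 of 83 (16.9%) at least 1.5-fold lower. The share was 12.6% among all 9157 genes over the minimum with a promoter.

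**Figure D4:**
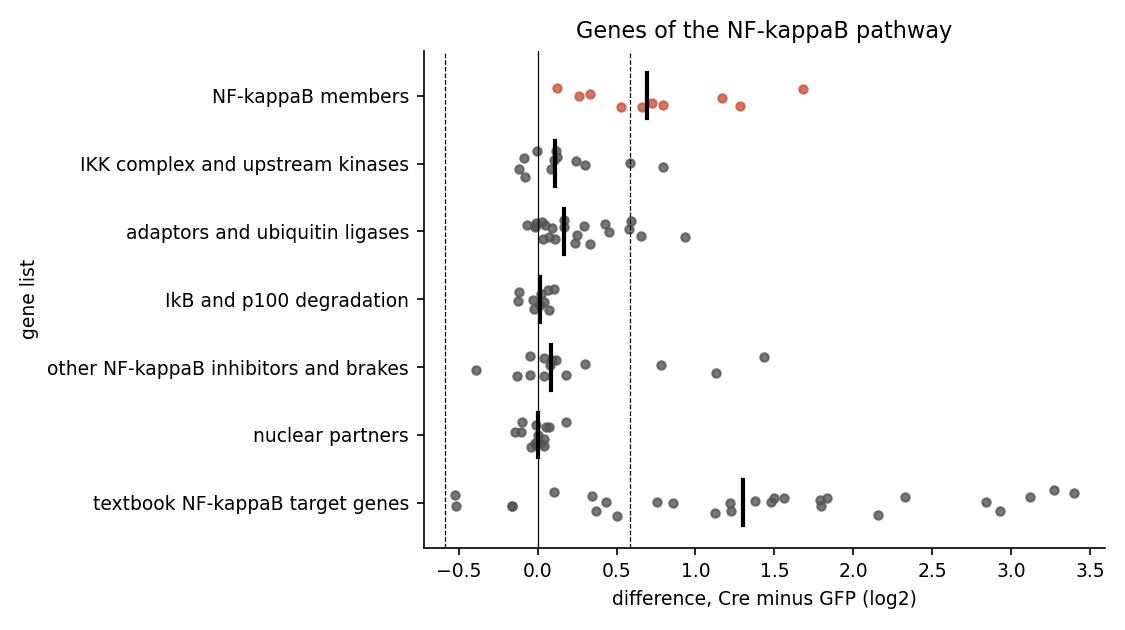
Difference in log2 normalized count, Cre minus GFP (horizontal axis), of each measured gene (points) in the NF-kappaB members and 6 lists of pathway genes, with black bars at the medians and dashed lines at 1.5-fold. The members (median 0.69) and target genes (median 1.30) lie to the right, whereas the degradation genes and nuclear partners stay between -0.14 and 0.18.

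Markers of macrophages and other leukocytes, cells that also express these genes, moved partly with the members. Of 15 measured markers, 4 were higher by 1.5-fold or more (26.7%, beside 2.25% of all genes). By as much, 1 was lower, where 0.952% of all genes were. The median was 0.22, with 10 markers above 0 and 5 below. The macrophage genes Emr1 and Cd14 differed by 1.08 and 1.04 and the lysozyme gene Lyz2 by 0.84. The lineage markers Csf1r, Cd68 and Ptprc differed by 0.09, -0.05 and 0.26, and the mannose receptor gene Mrc1 by -0.73. C1qa, C1qb and C1qc differed by -0.16, -0.13 and -0.34. None of the 15 was at 0. The part of such cells in the differences of the NF-kappaB genes was not tested, and in these bulk libraries more cells of a type and more RNA per cell cannot be told apart. None of the 7 lymphocyte markers was in the table. Fibroblast and perichondrial markers had 0 of 7 genes past 1.5-fold, and endothelial markers 0 of 4. Both counts are near the background of 2.25% higher and 0.952% lower.

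Some exons of the members overlap other genes, and the strand setting of the counting is not given in the sources used here. Exons of Nfkb2 share 6.52% of their bases with Psd on the opposite strand, which differed by 0.42, and 11.6% with the transcript AC114539.1. Exons of Nfkbib share 14.5% with Ccer2 and 1.94% with Sirt2, which differed by 0.03, and those of Bcl3 share 6.51% with Gm16175. Whether reads from these stretches were assigned by strand is therefore unknown. The other 7 members had no exon shared with another gene.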

How the data were processed

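Illumina TruSeq v2 mRNA libraries (per the labels' protocols) of 2 mouse chondrocyte cultures were compared, labelled Cre and GFP, with 1 library per group. Reads were handled with bcl2fastq 1.8.4, TopHat2 2.0.6 and HTSeq on mm10, per the submitters' processing notes. For 13138 genes, the authors deposited normalized counts on a log2 scale. The transform, scaling, annotation and strand setting were not given in the sources used here. A regularized log is inferred from the column heading. The difference in the deposited table is GFP minus Cre in all 13138 rows and was turned around. The depth is unknown, so no counting interval is given. Genes with a mean of at least 50 normalized counts were kept (12809). Folds, ranks, list counts, exon lengths (GENCODE M21) and kappaB matches (RefSeq promoters, GRCm38.p6) were computed with Python 3.11.15, pandas 2.3.3 and numpy 2.4.6. The foreseen comparisons had no test, since each group has 1 library. The members, lists and thresholds were chosen with earlier results of these data known. Named genes are the members, Hdac3 and up to 4 genes per pathway list with the largest absolute difference. Markers, overlapping genes and the genes Chuk, Ikbkb, Ikbkg, Traf6, Xiap and Ccnd1 were named after their values were seen. Alternatives were 3 scalings, other thresholds and minimums, the mean, other windows, transcript length and a looser motif.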

Additional observations from a re-analysis of the deposited data

How the results depend on the processing

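The 3 scalings each shift all differences by 1 constant, with offsets from -0.015 to -0.00041 on the log2 scale. All 30 member differences therefore had to stay within 0.1 of the values given, which is no check of them. All 20 percentiles among 200 or 1000 genes of like level stayed within 5 points. Of 98 alternative counts over the members and the 6 lists, 89 stayed within 1.5 times. Many of these counts start at 0 and the scalings shift genes little, so the tally is no measure of stability. With the minimum 10 times higher, Rel, Nfkbib, Nfkbie and Bcl3 fell below it, and the count of higher members was 4 in place of 6. Nfkbie and Bcl3 left that count through the minimum and not through a change in their differences. At 2-fold, where 0.734% of all genes were higher, the count was 3 for the members. It was 0 for the IKK complex and upstream kinases and 0 for the adaptors. With the threshold lowered to 0.32 on the log2 scale, it was 2 for the IKK list and 7 for the adaptors, beside 6.02% of all genes. At that threshold, 1 of the other inhibitors and brakes and 2 of the target genes were lower, beside 4.36% of all genes. Scaling to equal totals, with or without Rn45s and Lars2, took the IKK list to 2, since Map3k8 lay just under the threshold. With the mean in place of the median, the other inhibitors and brakes moved to 0.26 and the nuclear partners turned to -0.0012. Without replicates or read counts, no difference can be set against its error, and those of the less abundant members Rel, Nfkbie, Nfkbib and Bcl3 may be shrunk by the transform. No paired analysis was possible because there is only 1 library per group.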

Other observations

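Genes on either side of the members in the genome were looked up after the members' values were seen. The 2 nearest genes on each side were taken from those over the minimum whose symbols matched GENCODE M21, which gave 40 genes. Some lay far off, such as Alcam and Cblb at 3357301 and 3603327 bases from Nfkbiz. Of the 40, 2 were higher in the Cre-labelled library by 1.5-fold or more (5%, beside 2.25% of all genes over the minimum) and 0 lower. Above 0 lay 32 of the 40, beside 49.9% of all genes, and the median difference was 0.08. The higher ones were Slc39a8, which encodes the zinc transporter ZIP8, next to Nfkb1 at a difference of 1.57, and Pvr, which encodes the poliovirus receptor, second from Bcl3 at 0.70.

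Relb and Bcl3 lie 179024 bases apart on chromosome 7. Between them, 5 genes over the minimum could be placed by matching their symbols to GENCODE M21, so genes listed under other symbols would be missed. They were Clptm1 at 0.05, Apoc1 at -0.06, Apoe at -0.40, Tomm40 at 0.07 and Bcam at 0.02. Relb was at 0.66 and Bcl3 at 1.28. None of the 5 was past 1.5-fold in either direction, near the background of 2.25% higher and 0.952% lower.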
